A study of Mus musculus with 10 samples.

Results

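The sphingosine-1-phosphate (S1P) pathway genes described here are S1pr1 and S1pr3, which encode receptors for S1P, Sphk1 and Sphk2, which encode the kinases that make it, Spns2, which encodes its exporter, and Sgpl1, which encodes the lyase that degrades it. They were chosen by name, and all 6 were measured, among 42562 genes shared by the 8 plate tables and 32285 features of the 2 droplet libraries. All samples were cells of mouse ear skin sorted for endothelial surface markers, and some wells and droplet cells had markers of other cell types. The plates held lymphatic endothelial cells (LECs), gated as positive for CD31 and PDPN and negative for CD45, CD11b and Ter119, sequenced 1 cell per well by a Smart-seq protocol and analysed at P28. In 2 plates the mice were Prox1CreERT2;Tie1fl/fl (Tie1 deletion) and in 2 plates Prox1CreERT2;Tie1fl/fl,Tie2fl/fl (Tie1/-2 deletion). Their controls were 2 plates of Tie1fl/fl mice and 2 plates of Tie1fl/fl,Tie2fl/fl mice, which lacked Cre. Mice of all 4 groups, controls included, received 4-hydroxytamoxifen (4-OHT) from P1 to P5. Prox1 drives the recombinase, so deletion was aimed at LECs and its completeness is judged from the transcripts below. Both Tie1 groups held 1 female and 1 male plate, and the 4 plates with the Tie2fl/fl allele were male. The droplet libraries held CD31-sorted cells of male C57Bl/6j wild-type pups given 20 mg/kg of an angiopoietin-2 blocking antibody (Ang2 Ab) or control IgG between P16 and P21, with 1 library for each. The number of mice behind a plate or a library is not given. In the plates, p-values thus measure the spread between plates, which may be technical.

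S1P is a signalling lipid made inside cells when a sphingosine kinase adds phosphate to sphingosine, which comes from the breakdown of ceramide. It leaves endothelial cells through Spns2 and acts on G protein–coupled receptors at the cell surface, or it is destroyed for good by the lyase Sgpl1. Lymphatic endothelium is known as a main source of the S1P in lymph, which guides lymphocytes out of lymphoid tissue, and S1pr1 on endothelial cells is known for stabilising junctions and restraining sprouting. S1pr3 is the receptor best known from smooth muscle cells and pericytes, together called mural cells.

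After filtering, 2740 of 3026 wells were kept as LECs, with 301 to 362 in a plate. In these sorted plates a cluster counted as LEC unless markers of a non-endothelial type were raised. Blood endothelial wells were thus not screened out. Clusters led by Mest and Aqp1 (475 wells), Usp39 and Fam102b (243) and Cd320 and Oxct1 (92) got no class name. They count among the LECs but not in the class comparisons. Aqp1 is among the blood endothelial markers used below. Total counts were between 71309205 and 110741537 in a plate. Tie1, the targeted gene, lay between 2206 and 2854 CPM (counts scaled to a fixed library total) in the control plates and between 454 and 748 CPM in the plates of either deletion. Tek, which encodes Tie2, lay at 32.3 and 51.8 CPM in the Tie1/-2–deleted plates and between 214 and 339 CPM elsewhere. The 7 LEC markers summed to between 6937 and 8365 CPM in every plate, with none at 0. In the Tie1/-2–deleted plates, 6 blood endothelial markers summed to 1027 and 989 CPM, against 678 to 851 CPM in the other 6 plates, and 7 mural markers to 154 and 147 CPM, against 10.8 to 60.8 CPM. The 5 chondrocyte markers summed to 5.81 and 10.2 CPM in these plates, against 274 to 552 CPM in the others. The part of these markers in the results below was not tested. The IgG library held 42337184 and the Ang2 Ab library 31720670 unique molecular identifiers (UMIs), in 4685 and 4331 barcodes, 5 of which occurred in both.

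Within LECs, S1pr1 and Spns2 stood far above the other members. The members were ranked by CPM, scaled by trimmed mean of M values (TMM), per kilobase of exon, since a longer transcript yields more reads in this protocol. S1pr1 had 140 ± 13.6 CPM per kilobase (mean ± SD, n = 8 plates) and Spns2 104 ± 14.8 CPM per kilobase. Sphk2 followed with 19.0 ± 2.86, Sphk1 with 13.7 ± 3.67 and Sgpl1 with 8.18 ± 2.72 CPM per kilobase. The ranges of neighbouring genes in this order overlapped between S1pr1 and Spns2, between Sphk2 and Sphk1 and between Sphk1 and Sgpl1. Sphk1 and Sphk2 changed places when coding length was used instead. S1pr3 lay at 0.0196 ± 0.0247 CPM per kilobase. A count of S1pr1 was found in 94.1% to 99.4% of the LECs of a plate and one of Spns2 in 75.1% to 99.3%. The shares were 26.2% to 70.6% for Sphk1, 34.0% to 80.7% for Sphk2, 20.7% to 62.4% for Sgpl1 and 0.287% to 4.46% for S1pr3. Such shares depend on depth, and the plates differed in it, with medians between 3698.5 and 7023 genes per well before filtering. With wells thinned to 50000 counts, they were 15.5% to 45.5% for Sphk1, 24.4% to 53.6% for Sphk2 and 13.1% to 37.7% for Sgpl1. S1pr1 then had 84.1% to 99.0% and Spns2 64.9% to 92.3%.

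In the mouse annotation (GRCm38), S1pr1 lies at chr3:115710433-115715072 on the minus strand and S1pr3 at chr13:51408639-51422797 on the plus strand. Sphk1 (chr11:116530925-116536674, plus strand) and Spns2 (chr11:72451638-72489904, minus strand) share a chromosome, Sphk2 lies at chr7:45709467-45718002 on the minus strand and Sgpl1 at chr10:61098642-61147703 on the minus strand. Exons of Sphk2 overlap those of Dbp by 539 bases and those of Rpl18 by 373 bases on the opposite strand, which is 13% and 8.97% of its exon length. Exons of Spns2 overlap those of Mybbp1a (131 bases, 3.21%), those of Sphk1 overlap the antisense gene Gm29292 (192 bases, 4.02%) and those of S1pr3 overlap Gm32834 (45 bases, 1.01%), also on opposite strands. Whether the counting used strand is not given in the sources used here, so reads in these stretches may be shared between the genes.

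Lymphatic and blood endothelial cells from the same droplet library differed in 3 members. LEC-like cells numbered 1306 in the IgG and 750 in the Ang2 Ab library, and blood endothelial (BEC)-like cells 1263 and 1305. Their UMIs were summed by library and type, and the types were compared within libraries with edgeR (quasi-likelihood test, p-values adjusted by Benjamini-Hochberg) over 13303 genes. Library was a term in that fit, which has 1 residual degree of freedom per gene. Its p-values rest on how the difference between types varied between the IgG and Ang2 Ab libraries, which are not replicates. In all, 52.8% of the genes were called (26.2% higher and 26.6% lower in LEC-like cells). The call of 3 of 5 tested members is thus close to that of an average gene. In such sums, fewer cells of a kind and less RNA per cell cannot be told apart.

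S1pr1 was the one tested member that was lower in LEC-like than in BEC-like cells. It had 328 CPM in LEC-like and 562 CPM in BEC-like cells of the IgG library, and 380 and 707 CPM in those of the Ang2 Ab library. This is a log2 fold change of -0.88 ± 0.08 (SE; adjusted p = 0.000128). Sphk1 was higher in LEC-like cells, with 17.8 against 4.56 CPM in the IgG and 15.3 against 4.09 CPM in the Ang2 Ab library. Its log2 fold change of 1.89 ± 0.16 (adjusted p = 0.000102) was the widest of the members. Spns2 was also higher in LEC-like cells, with 209 against 132 CPM and 181 against 122 CPM, and a log2 fold change of 0.57 ± 0.08 (adjusted p = 0.000905). LEC-like cells thus held more of a kinase and of the exporter and less of a receptor in both libraries. Sphk2 (10.4 to 13.8 CPM over the 4 sums; log2 fold change 0.08 ± 0.14, adjusted p = 0.676) and Sgpl1 (10.1 to 13.8 CPM; 0.19 ± 0.14, adjusted p = 0.310) did not pass. S1pr3 was not tested because its counts were too low.

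**Figure D1:**
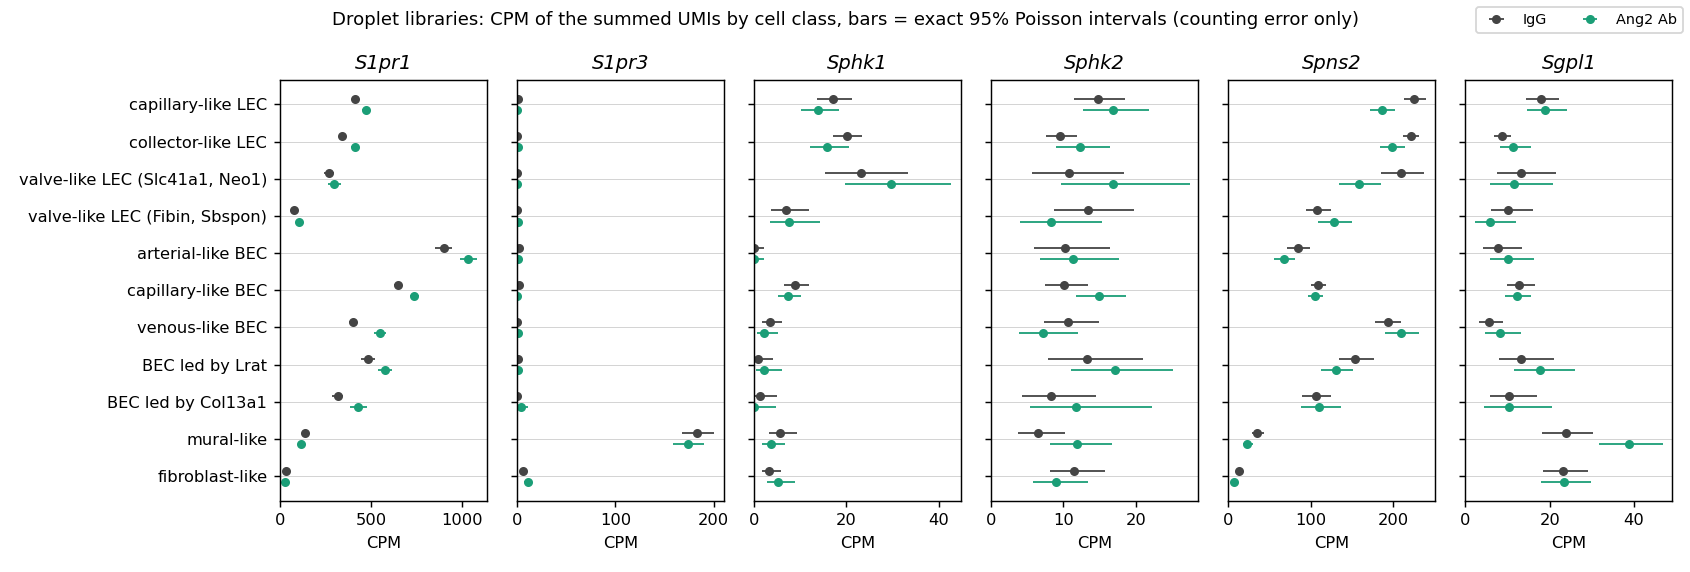
Level of each member by cell class in the IgG (grey) and Ang2 Ab (green) libraries, in CPM of the summed UMIs on a linear axis, with exact 95% Poisson intervals for counting error. S1pr1 peaks in arterial-like BECs at 899 and 1036 CPM and S1pr3 in mural-like cells at 184 and 174 CPM. Spns2 is high in capillary-like and collector-like LECs and venous-like BECs. The valve-like LEC cluster led by Slc41a1 and Neo1 overlaps them, at 210 and 159 CPM.

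Within blood vessels, S1pr1 was ordered from arteries to veins. Arterial-like BECs had 899 CPM in the IgG and 1036 CPM in the Ang2 Ab library, capillary-like BECs 649 and 738 CPM, and venous-like BECs 399 and 550 CPM. Arterial-like BECs thus had 2.25 times (95% counting interval 2.09 to 2.43) and 1.88 times (1.74 to 2.03) the level of venous-like BECs. A BEC cluster led by Lrat had 485 and 577 CPM, overlapping the venous-like range over the 2 libraries, and one led by Col13a1 had 317 and 430 CPM. Among LECs, capillary-like cells had 414 and 473 CPM, collector-like cells 344 and 412 CPM and valve-like cells 153 and 189 CPM. The venous-like BEC range overlapped that of capillary-like LECs, and the collector-like LEC range that of the Col13a1 BECs. Capillary-like LECs carried 2.70 times (2.44 to 2.99) and 2.50 times (2.24 to 2.79) the S1pr1 of valve-like LECs. Mural-like cells had 139 and 116 CPM and fibroblast-like cells 32.4 and 25.2 CPM. These intervals, here and below, cover counting error only.

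S1pr3 was highest in mural-like cells. Mural-like cells had 184 CPM (487 UMIs) in the IgG and 174 CPM (471 UMIs) in the Ang2 Ab library, and 63.1% and 61.7% of these cells held a UMI. Fibroblast-like cells had 5.89 and 10.9 CPM. LEC-like cells had 0.422 and 0.433 CPM, from 7 and 4 UMIs, and BEC-like cells 1.12 and 0.819 CPM, from 14 and 9 UMIs. The share of cells with a UMI was 0.536% and 0.533% in LEC-like and 0.95% and 0.536% in BEC-like cells, at median depths of 11744.5, 11157.5, 8929 and 7423 UMIs, against 11567 and 10359 in mural-like cells. The mural markers served as a measure of background. They reached a median of 0.251% and 0.264% of their mural level in LEC-like cells, where they ranged between 0.141% and 2.51%. S1pr3 reached 0.230% and 0.249% of its mural level there. Whether the S1pr3 of LEC-like cells is background or low expression was not tested. In LEC wells of the plates, S1pr3 lay between 0.00940 and 0.346 CPM, from 1 to 28 counts in a plate. The plate with 28 counts, Tie1fl/fl,Tie2fl/fl replicate 1, also had the highest fibroblast marker sum, 250 CPM against 19.2 to 55.8 CPM in the other plates. Its mural marker sum, 60.8 CPM, was below the 154 and 147 CPM of the Tie1/-2–deleted plates. The source of these S1pr3 counts was not tested.

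Of the kinases, Sphk1 was higher in capillary-like, collector-like and valve-like LECs than in capillary-like and venous-like BECs, whereas the levels of Sphk2 overlapped. In the IgG and Ang2 Ab libraries, Sphk1 had 20.1 and 15.9 CPM in collector-like, 17.2 and 13.9 CPM in capillary-like and 13.3 and 17.2 CPM in valve-like LECs, and these 3 ranges overlapped. The valve-like cluster led by Fibin and Sbspon had 6.97 and 7.50 CPM, which did not exceed capillary-like BECs in both libraries. Capillary-like LECs had 2.46 times (1.36 to 4.81) and 1.85 times (0.897 to 4.30) its level, and the latter interval includes 1. A small LEC cluster led by Gmfg and Sh3gl3 (52 and 37 cells) held no Sphk1 UMI. It had 113551 and 112722 UMIs of all genes, too few for this to place it below the other LEC classes. Capillary-like BECs had 8.89 and 7.43 CPM and venous-like BECs 3.44 and 2.03 CPM. No Sphk1 UMI was found in arterial-like BECs, of which there were 195 and 210, and the exact upper limits were 2.23 and 2.20 CPM. Sphk2 lay between 6.41 and 17.1 CPM in the 10 classes compared, and the ranges of all neighbouring classes in its order overlapped.

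Spns2, the exporter, was highest in LECs and veins. It had 222 and 199 CPM in collector-like LECs, 226 and 187 CPM in capillary-like LECs and 194 and 210 CPM in venous-like BECs, 3 ranges that overlapped. Arterial-like BECs had 84.5 and 67.9 CPM, so that venous-like BECs exceeded them by 2.29 times (1.91 to 2.77) and 3.09 times (2.51 to 3.84). Its arteriovenous order was therefore opposite to that of S1pr1 in both libraries. Valve-like LECs had 149 and 142 CPM of Spns2, which was 0.657 (0.588 to 0.733) and 0.758 (0.659 to 0.871) of the capillary-like LEC level. Their cluster led by Slc41a1 and Neo1 had 210 and 159 CPM, and that led by Fibin and Sbspon 108 and 128 CPM. The former exceeded the latter by 1.94 times (1.61 to 2.35) and 1.23 times (0.980 to 1.56). Sgpl1, the lyase, was highest outside the endothelium, with 23.7 and 38.7 CPM in mural-like and 23.3 and 23.3 CPM in fibroblast-like cells. Capillary-like LECs followed with 18 and 18.9 CPM, and valve-like LECs had 11.4 and 8.39 CPM.

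The plates gave replicates for the LEC classes. Wells were summed by plate and class where a plate held at least 10 wells of it, and each class was compared with capillary-like LECs within plates by edgeR over 15146 genes. The members had been left out of the clustering. None of the 5 tested members passed in any of the 4 class comparisons at an adjusted p of 0.05, whereas 0.178% of all genes passed for collector-like, 2.37% for valve-like, 2.59% for proliferating and 1.38% for interferon LECs. At an unadjusted p below 0.05 there were 1 member for collector-like, 1 for valve-like and 2 for proliferating LECs, against 7.13%, 10.5% and 13.5% of all genes, and DESeq2 likewise called none.

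S1pr1 was low in valve-like LECs of 6 plates. In the control plates it had 266 and 215 CPM (Tie1fl/fl) and 291 and 227 CPM (Tie1fl/fl,Tie2fl/fl), and in the Tie1-deleted plates 219 and 238 CPM. All 6 values lay below the lowest capillary-like value of any plate, 324 CPM. The Tie1/-2–deleted plates stood apart with 473 and 471 CPM. Over all 8 plates the log2 fold change against capillary-like LECs was -0.53 ± 0.18 (SE; adjusted p = 0.165, edgeR). In the 4 control plates alone it was -0.85 ± 0.15 and passed (adjusted p = 0.0163, edgeR), and it also passed without Tie1Tie2 deleted replicate 1 (-0.65, adjusted p = 0.0279). The share of all genes called in these alternative runs is not given here.

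**Figure D2:**
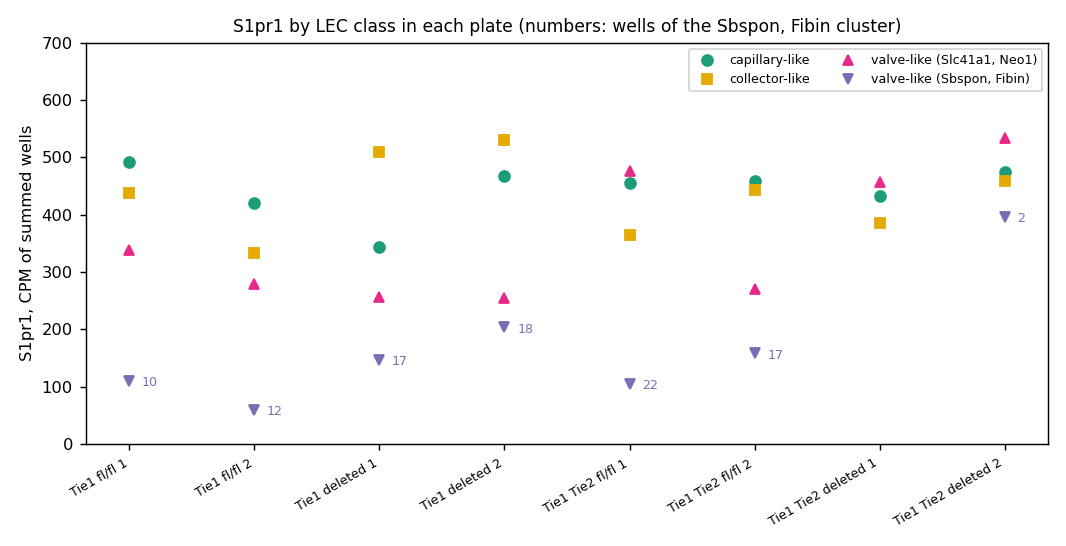
S1pr1 by LEC class in each plate, in CPM of the summed wells, with the number of wells of the valve-like cluster led by Hbegf, Sbspon and Fibin written beside its symbol. Where that cluster holds 10 or more wells its S1pr1 lies between 59.8 and 203 CPM, below every value of the valve-like cluster led by Slc41a1, and the Tie1/-2–deleted plates hold 0 and 2 such wells.

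The valve-like class was made of 2 clusters that differed in S1pr1. The division was made after the values were seen, so its values are a description with no test. A cluster of 98 wells was led by Hbegf and Sbspon and had 1822 CPM of Gdf10, against 923 CPM in the other, and a cluster of 269 wells was led by Slc41a1, at 3126 against 1155 CPM, and Neo1, at 1066 against 212 CPM. In the 6 plates with at least 10 wells of the former, S1pr1 had 110 and 59.8 CPM (Tie1fl/fl), 105 and 158 CPM (Tie1fl/fl,Tie2fl/fl) and 147 and 203 CPM (Tie1 deletion). In the latter, it lay between 254 and 534 CPM in the 8 plates, so the clusters did not overlap. The former cluster held 10 and 12 wells in Tie1fl/fl controls, 22 and 17 in Tie1fl/fl,Tie2fl/fl controls, 17 and 18 in the Tie1-deleted plates and 0 and 2 in the Tie1/-2–deleted plates. The 2 wells of the last plate gave 396 CPM of S1pr1. Spns2 in the Hbegf cluster lay between 101 and 189 CPM in 5 of the 6 plates and at 620 CPM in Tie1fl/fl replicate 2, against 369 to 674 CPM in the Slc41a1 cluster of the 8 plates.

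The droplet libraries, clustered on their own, held a like division. A valve-like cluster led by Fibin and Sbspon had 78.3 CPM of S1pr1 in the IgG (157 cells) and 103 CPM in the Ang2 Ab library (126 cells). One led by Slc41a1 and Neo1 had 269 CPM (98 cells) and 298 CPM (72 cells). The latter exceeded the former by 3.43 times (2.82 to 4.2) and 2.88 times (2.33 to 3.59). Capillary-like LECs exceeded the Fibin cluster by 5.28 times (4.46 to 6.29) and 4.57 times (3.81 to 5.54).

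In the remaining classes of the plates, estimates for Spns2 and Sphk1 stood out without passing. In collector-like LECs it had 563 ± 130 CPM (SD, n = 8), against 427 ± 73.0 CPM in capillary-like LECs, and was higher in 7 of 8 plates (log2 fold change 0.38 ± 0.18 SE, adjusted p = 0.665, edgeR). In the droplet libraries the ratio of collector-like to capillary-like LECs was 0.981 (0.911 to 1.06) and 1.07 (0.957 to 1.19). In proliferating LECs Spns2 had 255 ± 77.0 CPM (n = 5 plates) and was lower in 5 of 5 plates (-0.72 ± 0.21 SE, adjusted p = 0.0728, edgeR), and it passed without Tie1 deleted replicate 1 (-0.81, adjusted p = 0.0273). Sphk1 had 28.2 ± 25.8 CPM in proliferating against 78.9 ± 23.8 CPM in capillary-like LECs and was lower in 5 of 5 plates (-1.75 ± 0.76 SE, adjusted p = 0.292, edgeR). The median over all genes in that comparison was -0.18. S1pr1 had 445 ± 75.3 CPM in collector-like, 398 ± 79.7 CPM in proliferating and 478 ± 163 CPM in interferon LECs. Sphk2 lay between 70.9 and 94.6 CPM and Sgpl1 between 34.1 and 72.0 CPM as means of the 5 classes. For Sgpl1 in valve-like against capillary-like LECs the plate estimate and the droplet ratios differed in sign, but the plates varied too widely to show a difference. Its log2 fold change in the plates was 0.34 and did not pass. Single plates lay between -1.89 and 1.52 (log2 ratio with 1 CPM added). The ratios in the IgG and Ang2 Ab libraries were 0.633 (0.415 to 0.946) and 0.443 (0.247 to 0.757).

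Whether deletion of the Tie receptors changed these genes was asked in all LECs of a plate, by 1 edgeR fit over 19920 genes and 8 plates. S1pr3 fell below the filter on low counts. No other member passed in either deletion, in their difference or in their average. In the Tie1 deletion 0% of all genes passed, although 846 (4.25%) had an unadjusted p below 0.05 and DESeq2 called 174. Tie1 itself thus did not pass, nor did Angpt2, which encodes angiopoietin-2. Angpt2 had a mean of 361 CPM in the Tie1fl/fl controls and 941 CPM in the Tie1-deleted plates. The lack of a call in that contrast therefore does not show that a gene was unchanged. In the Tie1/-2 deletion 1.18% passed (0.306% higher and 0.879% lower), in the difference 0.131% and in the average 0.999%. DESeq2 called no member either. No member had an unadjusted p below 0.05 by edgeR in any of these contrasts. Of all genes, 10.7% did in the Tie1/-2 deletion, 7.49% in the difference and 9.88% in the average. Among so few members, having none is close to these shares. An exact permutation test of 2 against 2 plates cannot give a p below 0.333, also where the groups do not overlap. The share of all genes whose groups do not overlap is not given here.

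**Figure D3:**
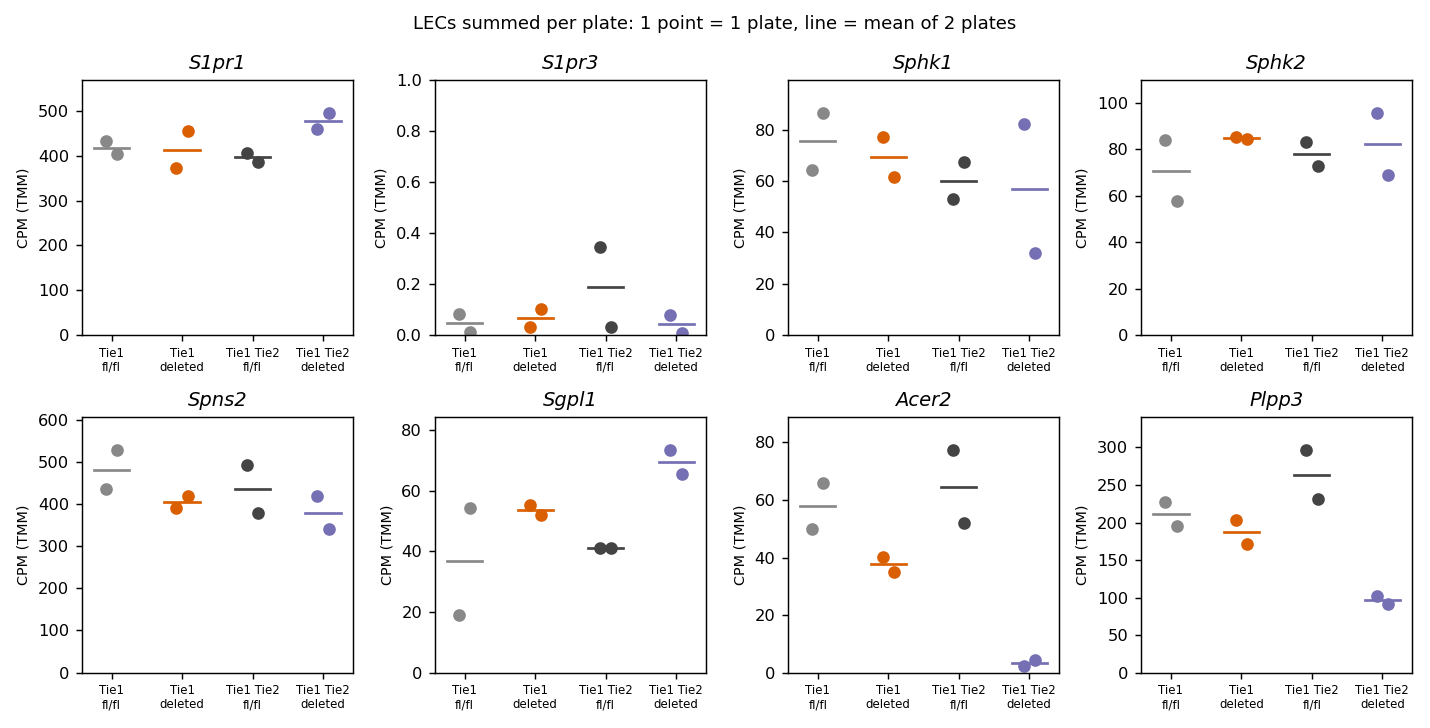
Level of the 6 members and of Acer2 and Plpp3 in the LECs of each plate, in TMM-scaled CPM on linear axes from 0, with 1 point per plate and a line at the mean of the 2 plates of a group. S1pr1 (460 and 495 CPM) and Sgpl1 (73.3 and 65.6 CPM) of the Tie1/-2–deleted plates lie above both of their control plates, and Acer2 falls to 2.19 and 4.38 CPM. In the Tie1-deleted plates Sphk2 lies above and Spns2 below both controls. Groups of 2 plates that do not overlap reach a p of 0.333 at best in an exact permutation test.

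S1pr1 had 432 and 403 CPM in Tie1fl/fl controls and 373 and 454 CPM in the Tie1-deleted plates, which overlapped. It had 405 and 386 CPM in Tie1fl/fl,Tie2fl/fl controls and 460 and 495 CPM in the Tie1/-2–deleted plates, which did not. The log2 fold changes were -0.01 ± 0.19 (SE; 95% interval -0.44 to 0.42) and 0.27 ± 0.19 (-0.16 to 0.70; adjusted p = 0.702, edgeR). Changes of S1pr1 within these intervals are not excluded by these plates.

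Sphk1 had 64.4 and 86.4 CPM in Tie1fl/fl controls and 77.0 and 61.5 CPM in the Tie1-deleted plates. It had 53.0 and 67.4 CPM in Tie1fl/fl,Tie2fl/fl controls and 82.2 and 31.9 CPM in the Tie1/-2–deleted plates, the last being the lowest of all 8. The groups overlapped in both strains, with log2 fold changes of -0.12 ± 0.43 and -0.08 ± 0.43. Sphk2 had 84.1 and 57.6 CPM against 85.1 and 84.3 CPM in the Tie1 strain, where deleted plates were just above both controls, and 83.2 and 72.6 CPM against 95.5 and 68.7 CPM in the Tie1Tie2 strain. Its log2 fold changes were 0.26 ± 0.28 and 0.08 ± 0.28.

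Spns2 had 436 and 527 CPM in Tie1fl/fl controls and 391.7 and 420 CPM in the Tie1-deleted plates, which did not overlap. It had 492 and 379 CPM in Tie1fl/fl,Tie2fl/fl controls and 418 and 340 CPM in the Tie1/-2–deleted plates, which did. Neither log2 fold change passed, at -0.25 ± 0.22 (95% interval -0.75 to 0.26) and -0.20 ± 0.22 (-0.70 to 0.30).

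Sgpl1 had the largest deletion estimates of the members. It had 19.1 and 54.3 CPM in Tie1fl/fl controls, 55.3 and 51.9 CPM in the Tie1-deleted plates, 41.2 and 41.0 CPM in Tie1fl/fl,Tie2fl/fl controls and 73.3 and 65.6 CPM in the Tie1/-2–deleted plates. The groups of the Tie1Tie2 strain did not overlap. The log2 fold changes were 0.55 ± 0.44 in the Tie1 and 0.76 ± 0.44 in the Tie1/-2 deletion (adjusted p = 0.622, edgeR), and their average was 0.65 ± 0.31 (adjusted p = 0.558, edgeR). The estimate in the Tie1 deletion rested on Tie1fl/fl replicate 1, without which it was -0.02.

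**Figure D4:**
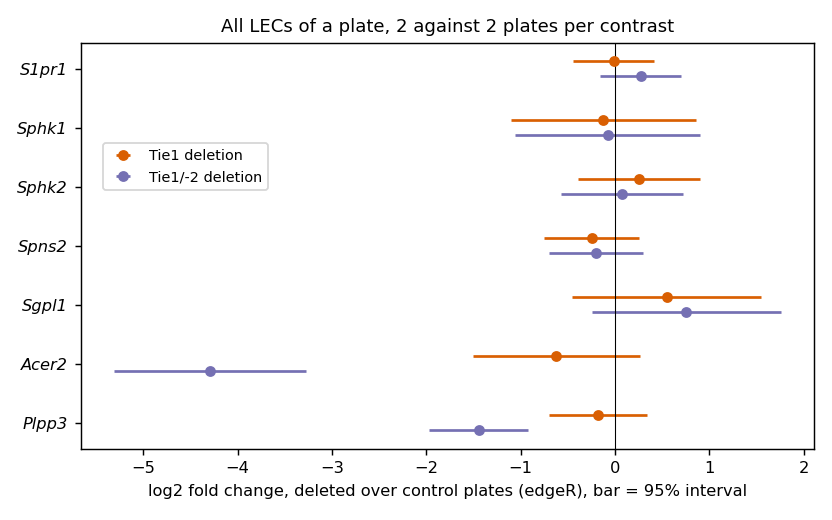
Log2 fold change of the tested members and of Acer2 and Plpp3 in all LECs of a plate, deleted over control plates, with 95% intervals from the edgeR fit, for the Tie1 (orange) and Tie1/-2 (purple) deletions. The intervals of all members cross 0, and those of Acer2 (-4.29) and Plpp3 (-1.45) in the Tie1/-2 deletion do not.

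The same question was asked inside the LEC classes. No member passed within capillary-like, collector-like or valve-like LECs in either deletion. For the Tie1 deletion 0% of genes passed in each of the 3 classes by edgeR, with 776, 425 and 749 genes at an unadjusted p below 0.05. Tie1 itself thus did not pass there, with a log2 fold change of -1.94 ± 0.29 in capillary-like LECs (adjusted p = 0.992, edgeR). For the Tie1/-2 deletion 0.338%, 0.3% and 0.11% passed. In capillary-like LECs the log2 fold changes of S1pr1 were -0.13 ± 0.25 and -0.02 ± 0.25. In valve-like LECs, where the Tie1/-2–deleted plates held 473 and 471 CPM against 291 and 227 CPM, the S1pr1 estimate was 0.90 ± 0.31 (SE; adjusted p = 0.538, edgeR). With the wells of the Slc41a1 cluster alone, a division made after the values were seen, it was 0.37 ± 0.39, given as a description. The wells of the low-S1pr1 valve-like cluster were 0 and 2 in the Tie1/-2–deleted plates, against 22 and 17 in their controls. The part of these wells in the S1pr1 estimate was not tested. Sgpl1 had an estimate of 2.11 ± 0.98 in valve-like LECs of the Tie1/-2 deletion (adjusted p = 0.690, edgeR). Sphk2 had 4.4 and 35.1 CPM in collector-like LECs of the Tie1/-2–deleted plates, from 12 and 13 wells, against 82.6 and 63.9 CPM in their controls. Its log2 fold change was -1.89 ± 0.87 (adjusted p = 0.434, edgeR), and without Tie1Tie2 deleted replicate 2, which leaves the 12-well sum with 11 counts alone in its group and assumed to vary like the others, it was -4.13 and passed (adjusted p = 0.0311).

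Blocking angiopoietin-2 was studied with 1 library a condition, so no test across samples exists and ratios carry counting intervals alone. In LEC-like cells S1pr1 was 1.16 times (1.11 to 1.21) and Spns2 0.865 times (0.816 to 0.917) the IgG level in the Ang2 Ab library. In BEC-like cells the ratios were 1.26 (1.22 to 1.30) for S1pr1 and 0.927 (0.862 to 0.997) for Spns2. In the main run the intervals for Sphk1, Sphk2 and Sgpl1 included 1 in both types. Those of Sphk2 and Spns2 in BEC-like cells depended on the processing, as given below. With a fold of 1.5 as the limit, 0 of the 5 members with at least 100 UMIs in a type's pooled libraries lay past it in LEC-like or BEC-like cells, while 6.61% and 3.82% of all genes did. Ratios at least as far from 1 as that of S1pr1 were found in 34.2% of genes in LEC-like and 14.3% in BEC-like cells, and for Spns2 in 34.6% and 58.2%.

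**Figure D5:**
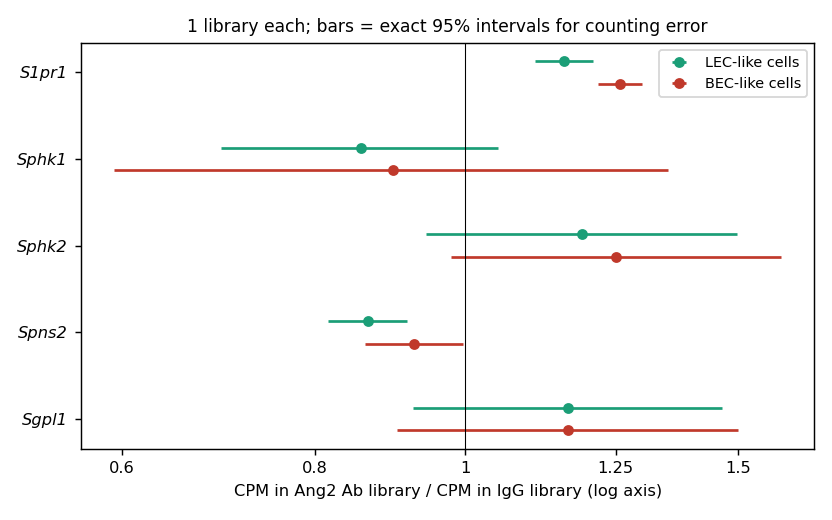
CPM in the Ang2 Ab library over CPM in the IgG library for 5 members on a log axis, in LEC-like (green) and BEC-like (red) cells, with exact 95% intervals for counting error and 1 library per condition. S1pr1 lies above 1 at 1.16 and 1.26 and Spns2 below 1 at 0.865 and 0.927, and the intervals of Sphk1, Sphk2 and Sgpl1 include 1.

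The S1pr1 ratio lay above 1 in each of the 8 endothelial classes compared. It was 1.14 in capillary-like, 1.20 in collector-like and 1.23 in valve-like LECs, 1.151 in arterial-like, 1.14 in capillary-like and 1.38 in venous-like BECs, 1.19 in the Lrat BECs and 1.36 in the Col13a1 BECs. Outside the endothelium it was 0.830 (0.712 to 0.968) in mural-like and 0.777 (0.565 to 1.06) in fibroblast-like cells. With the LEC classes weighted as in the IgG library, the LEC-like ratio was 1.18. The Spns2 ratio was 0.826 (0.748 to 0.912) in capillary-like, 0.898 (0.822 to 0.979) in collector-like and 0.954 (0.822 to 1.10) in valve-like LECs. S1pr3 had ratios of 1.03 (0.221 to 4.04) in LEC-like and 0.731 (0.279 to 1.81) in BEC-like cells, on a few UMIs.

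The surrounding pathway was taken from a list of 65 genes in 11 groups, 59 of them other than the members. Of the 55 others tested in all LECs, 0 passed in the Tie1 deletion and 2 (3.64%) fell in the Tie1/-2 deletion, where 0.879% of all genes fell. Here too the sums pool LEC classes whose mix may differ between the groups. Acer2, a ceramidase that releases the sphingosine from which S1P is made, had 77.2 and 52.0 CPM in Tie1fl/fl,Tie2fl/fl controls and 2.19 and 4.38 CPM in the Tie1/-2–deleted plates (log2 fold change -4.29 ± 0.44 SE, adjusted p = 0.00431, edgeR). In the Tie1 strain it had 49.9 and 65.8 CPM against 40.1 and 35.1 CPM (-0.62 ± 0.39), and the difference between the deletions did not pass (adjusted p = 0.0702). Plpp3, a lipid phosphatase that removes phosphate from S1P outside the cell, had 296 and 231 CPM against 102 and 91.2 CPM in the Tie1Tie2 strain (-1.45 ± 0.23 SE, adjusted p = 0.025, edgeR). It passed in the full set of plates, and without any 1 of 7 plates its adjusted p was between 0.0512 and 0.236. In the LEC-like cells of the Ang2 Ab library Acer2 was 0.572 times (0.432 to 0.751) and Plpp3 0.668 times (0.612 to 0.728) the IgG level. Both were also below the IgG level in BEC-like cells, at 0.864 times (0.776 to 0.961) and 0.833 times (0.808 to 0.858).

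Across LEC classes, 52 others were tested. In valve-like LECs Plpp1, another lipid phosphatase, rose by a log2 fold change of 0.90 ± 0.23 (adjusted p = 0.0282, edgeR; higher in 8 of 8 plates; 0.0532 to 0.0834 without any 1 of the 4 plates of the Tie1 strain), and Degs1, which makes ceramide from dihydroceramide, fell by 0.72 on the log2 scale (adjusted p = 0.00328, edgeR; lower in 8 of 8 plates). In proliferating LECs the lipid transporter Abca1 fell by 1.30 on the log2 scale (adjusted p = 0.000560, edgeR; lower in 5 of 5 plates) and Sptlc2, a subunit of serine palmitoyltransferase, rose by 0.81 (adjusted p = 0.0417, edgeR; higher in 5 of 5 plates). The Sptlc2 call was lost without any 1 of 7 plates (adjusted p between 0.0501 and 0.124, edgeR), and its estimate was 0.46 at a finer clustering (adjusted p = 0.321, edgeR). No others passed in collector-like or interferon LECs by edgeR, where 2 each (of 52) had an unadjusted p below 0.05, against 7.13% and 14.8% of all genes.

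Between LEC-like and BEC-like cells, 18 of 50 others tested were higher and 16 lower in LEC-like cells, which is 68% against 52.8% of all genes. Those with the smallest p were Plpp3 (log2 fold change -2.98 ± 0.10 SE), Ugcg, which makes glucosylceramide (1.88 ± 0.09), Sptssa, a small subunit of serine palmitoyltransferase (1.60 ± 0.08), Acer2 (-2.53 ± 0.14), Degs1 (1.29 ± 0.08) and Sgms1, a sphingomyelin synthase (-0.98 ± 0.08). Among the receptors, S1pr4 was lower in LEC-like cells (10.0 and 15.6 CPM against 22.6 and 23.1 CPM; -0.92 ± 0.17, adjusted p = 0.00370, edgeR). S1pr2 did not pass (-0.78 ± 0.29, adjusted p = 0.0565, edgeR), and 1 UMI of S1pr5 was found in these 4 sums. Under Ang2 Ab, of 45 others with at least 100 UMIs, S1pr4, Cerk, Sgpp1 and Gnai1 lay above and Acer2 below the 1.5-fold limit in LEC-like cells, and Smpd3 lay above it in BEC-like cells, beside 6.61% and 3.82% of all genes. Cerk, which encodes ceramide kinase, had the highest of these LEC ratios, 1.67 (1.52 to 1.83).

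In the plates, the gene with the highest CPM of each group was S1pr1 (receptors), Spns2 (exporters and uptake), Cerk (kinases), Sgpl1 (lyase), Plpp1 (phosphatases), Asah1 (ceramidases), Cers2 (ceramide synthases), Degs1 (de novo synthesis), Smpd2 (sphingomyelin branch) and Rac1 (G proteins and effectors). Apom, the carrier of S1P in plasma, had 0 counts in the LECs of all 8 plates. Over 33 points, each the sum of a cluster in 1 droplet library, the genes whose levels followed S1pr1 most closely were Myct1, Adgrf5 and 2900026A02Rik (Pearson r between 0.929 and 0.942). For S1pr3 they were Ccl11, Foxs1 and Il34 (0.901 to 0.932), for Spns2 Ppp2r5a, Hoxd8 and Parvb (0.900 to 0.931) and for Sgpl1 Cmtm4, Slc30a5 and Ppp1r12b (0.830 to 0.838). Sphk1 was followed by Ext1, Gm15902 and Lrch2 (0.731 to 0.758) and Sphk2 by Eif5a2, Alg3 and Taf2 (0.583 to 0.589). The points share their library, depth and clustering, so these values are a description, and those of Sphk1 and Sphk2 rest on 688 and 886 UMIs. The genes named are the highest of 10127 compared for each member, so their r values are selected to be high.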

How the data were processed

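The plate tables hold raw counts per gene and well, which the authors deposited after alignment with TopHat2 2.1.1 and counting with featureCounts (GRCm38), per the submitters' processing notes. The droplet matrices hold raw UMI counts, deposited by the authors after Cell Ranger, whose version is given as 2.1.1 in those notes and differently in the file headers. One title calls the Ang2 Ab sample a control, and the treatment label was used to place it. No per-sample column was left unmapped.

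Filters required 1000 genes in a well, or 500 genes and no more than 10% mitochondrial UMIs in a droplet cell. Clustering used the igraph form of Leiden clustering in scanpy 1.11.5 (2000 variable genes, 30 components, 15 neighbours, resolution 1). The pathway list and 12 genes of the study were left out of it. Clusters were called by marker lists, under a naming rule set with the data in view. Plate clusters counted as LEC by default, unless a non-endothelial marker list was raised. The 259 Fibroblast-like and 27 Keratinocyte-like wells were removed. A doublet caller marked 0.582% and 0.0675% of droplet cells, the latter too few to be usable, and none was removed.

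Counts were summed by plate, by plate and class, or by library and type, scaled by TMM and tested with edgeR 4.0.16 (quasi-likelihood, filterByExpr, Benjamini-Hochberg, threshold 0.05). Class, type and deletion tests were run on simulated data first. DESeq2 1.42.0, limma 3.58.1, other filters, scalings, resolutions and left-out plates were alternatives. With 1 droplet library per condition, exact intervals for counting error were used. The members and lists were chosen with earlier results of these data known. The genes named were the members, the pathway genes that passed, the 6 with the smallest p between LEC-like and BEC-like cells and the genes most like each member. In the Tie1 strain, plates that share a number deviated together with a correlation of 0.106 across 19920 genes, but they also share a table layout, so the numbers were not taken as pairs.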

Additional observations from a re-analysis of the deposited data

Results flagged for a closer look

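S1pr3 was found in plate wells that the comparisons leave out, above its level in LECs. The 259 Fibroblast-like wells held 17.3 CPM of S1pr3 (278 counts), against 0.0839 CPM (57 counts) in the 2740 LEC wells. A count was present in 22 of these wells (8.49%), and 209 of the 278 counts came from Tie1Tie2 deleted replicate 1. No comparison between groups was made in them.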

How the results depend on the processing

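Each group held 2 plates, and what limited the precision of the low members was not tested. No member was called in either deletion in all LECs of a plate under any alternative run. The count of all genes called moved more: in the Tie1 deletion from 0 to 174 with DESeq2 and 272 without a filter on low counts, in the Tie1/-2 deletion from 236 to 1044 and 1198, in their difference from 26 to 454 and 644 (13 with table layout as a term, 17 with no cluster removed) and in their average from 199 to 895 and 1098. The cause was not tested. With a replicate block in the Tie1 strain, 0 genes and 0 members were called, and the log2 fold changes were -0.02 for S1pr1 and 0.73 for Sgpl1, so the block changed no call.

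For valve-like against capillary-like LECs, 1 member, S1pr1, was called with the 4 control plates only and with genes scaled over all plates. No share of all genes called is given here for the alternative runs of the class comparisons, left-out plates included. Between LEC-like and BEC-like cells, limma on log2(mean CPM per cell + 1) turned the direction of Sphk2 (-0.015) and Sgpl1 (-0.065), neither of which was called. The Ang2 Ab ratio of S1pr1 in BEC-like cells was 1.21 as a mean of CPM per cell. In the same cells the Sphk2 interval lay above 1 with at most 5% mitochondrial UMIs (1.09 to 2.01). It also did with at least 1000 genes (1.01 to 1.66) or without the top 5% of doublet scores (1.04 to 1.71). The Spns2 interval there included 1 with at most 5% mitochondrial UMIs (0.846 to 1.02). It also did without the top doublet scores (0.883 to 1.03) and at resolution 2.0 (0.880 to 1.02).

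Leaving out 1 plate at a time gave 0 to 0 genes called in the Tie1 deletion, 90 to 224 in the Tie1/-2 deletion, 4 to 17 in their difference and 58 to 156 in their average. Members called ranged from 0 to 1 for valve-like and for proliferating LECs and for the Tie1/-2 deletion in collector-like LECs. Estimates whose sign depended on 1 plate were, in the Tie1 deletion, S1pr1 (-0.17 to 0.13), Sphk1 (-0.32 to 0.11) and Sgpl1 (-0.016 to 1.49), and, in the Tie1/-2 deletion, Sphk1 (-0.95 to 0.45), Sphk2 (-0.22 to 0.29) and Spns2 (-0.39 to 0.00067). Acer2 in the average of the deletions had an adjusted p of 0.0538 and 0.0594 (edgeR) without either Tie1-deleted plate. Plpp1 (adjusted p = 0.191) and Abca1 (adjusted p = 0.768) did not pass in the control plates alone, and Sptlc2 did not pass there (adjusted p = 0.751), without a filter on low counts (0.124), at resolution 2.0 (0.321) or with genes scaled over all plates (0.306). At Leiden resolution 0.5 no capillary-like class was found, so the class comparisons were not run there. The valve-like division was an alternative chosen after seeing the data.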
